A study of Mus musculus with 9 samples.

Results

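Glycolysis genes and genes of the response to low oxygen were described in libraries labelled as regulatory T cells (Tregs) of 3 organs of injured mice. The 34 genes were taken by name from the deposited count table of 49510 genes, and all 34 had enough counts to be tested. They comprise 2 glucose transporters, 3 hexokinases, 13 further enzymes of glycolysis, 2 enzymes of its regulator fructose bisphosphate, 3 enzymes that act on pyruvate or lactate, 2 lactate transporters, 4 oxygen-sensing genes and 5 other hypoxia-responsive genes. Tregs, CD4 T cells that express the transcription factor Foxp3 and restrain immune responses, came from spleen, from the mediastinal lymph node that drains the heart (MLN) and from the heart, with 3 RNA-seq libraries per organ. Every library was from the Foxp3-GFP strain at 8 weeks of age and 3 days after I/R (ischemia/reperfusion) injury to the heart, a temporary stop of its blood supply. No uninjured group was analysed here, so each difference is between organs of injured mice and not between injury and health. Cells were purified first with magnetic beads and then by fluorescence sorting, and their RNA was amplified with a SMARTer ultra-low input kit. Whether each library stands for a separate mouse or a pool is not stated, so p-values measure the spread between these libraries alone.

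Glycolysis splits glucose into pyruvate and yields ATP without oxygen. Lactate dehydrogenase then turns pyruvate into lactate, which leaves the cell through monocarboxylate transporters, or pyruvate enters the mitochondria. When oxygen falls, prolyl hydroxylases of the EGLN family stop marking the transcription factor HIF-1 alpha for destruction by the VHL ligase, and HIF-1 binds a short core sequence near its targets, which include most glycolytic enzymes and the mitophagy receptor gene Bnip3. In Tregs, glycolysis and HIF-1 are known to bear on the balance between suppression, migration and stability of Foxp3 expression. HIF-1 alpha is regulated largely at the protein level, which RNA counts do not measure.

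The 250 bases before the transcription start are shown for the 3 members with a called difference that have a promoter entry, Hk2, Bnip3 and Hif1a, and for Pgk1 and Ldha, textbook HIF targets with no called difference. They are RefSeq sequences of build GRCm38.p6, printed 5′ to 3′ on the strand of the gene. Capitals mark matches to the HIF core, searched as ACGTG or GCGTG on both strands, so that overlapping matches share letters.
Hk2: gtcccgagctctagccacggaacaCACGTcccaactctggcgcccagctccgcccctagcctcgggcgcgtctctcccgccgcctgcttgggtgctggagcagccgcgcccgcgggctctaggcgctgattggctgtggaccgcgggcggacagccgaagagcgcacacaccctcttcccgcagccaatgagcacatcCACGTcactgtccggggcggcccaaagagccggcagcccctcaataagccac
Bnip3: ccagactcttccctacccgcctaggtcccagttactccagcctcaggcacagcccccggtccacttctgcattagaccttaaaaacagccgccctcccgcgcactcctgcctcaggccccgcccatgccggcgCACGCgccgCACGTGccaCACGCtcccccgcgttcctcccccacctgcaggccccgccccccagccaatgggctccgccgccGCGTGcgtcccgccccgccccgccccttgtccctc
Hif1a: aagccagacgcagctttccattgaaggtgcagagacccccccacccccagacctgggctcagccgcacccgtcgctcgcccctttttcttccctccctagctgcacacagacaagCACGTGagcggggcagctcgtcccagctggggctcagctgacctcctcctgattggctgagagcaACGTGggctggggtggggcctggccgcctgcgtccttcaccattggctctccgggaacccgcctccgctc
Pgk1: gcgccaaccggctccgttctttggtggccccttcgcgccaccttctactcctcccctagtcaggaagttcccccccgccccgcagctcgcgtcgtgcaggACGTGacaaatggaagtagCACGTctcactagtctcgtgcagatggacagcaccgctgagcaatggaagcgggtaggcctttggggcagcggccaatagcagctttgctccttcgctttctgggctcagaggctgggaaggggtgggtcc
Ldha: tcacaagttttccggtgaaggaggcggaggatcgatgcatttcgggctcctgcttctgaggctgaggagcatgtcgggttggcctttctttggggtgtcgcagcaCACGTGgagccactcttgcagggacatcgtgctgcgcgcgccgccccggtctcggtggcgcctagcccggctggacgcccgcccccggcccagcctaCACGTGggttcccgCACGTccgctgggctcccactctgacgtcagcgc
The Hk2 window lies at chr6:82774455-82774704 on the minus strand, with cores that start at -226 and -52 relative to the transcription start. The Bnip3 window lies at chr7:138909507-138909756 on the minus strand and holds 5 matches, 2 of which share the palindrome CACGTG. The Hif1a window at chr12:73907617-73907866 holds 3 matches on 2 separate stretches and, since it precedes the RefSeq start, lies inside the longer GENCODE span of the gene given with its values. The Pgk1 window at chrX:106186850-106187099 holds 2 matches, and the Ldha window at chr7:46845554-46845803, the first of 2 for that gene, holds 5. The second Ldha window, which is not shown, holds 1 match. The first 30 bases after its start occur in a GENCODE transcript of Ldha. Those after the start of the shown Ldha window do not, nor do those of the Hif1a window for Hif1a. The genes with and without a called difference thus both carried the core in these windows. Over the 31 members with an entry, 35 of 44 windows held the core, against 38.6% of the 32851 mouse promoter windows. Median GC content was 61.8% in the members' windows and 52.4% in all windows, and its part in the share of matches was not tested. A match is a run of letters and was not measured as binding.

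Libraries held 156194012 to 267520538 counts, and 14562 to 18570 genes had a count. Levels are given in CPM, the counts of a gene scaled to a common library total after TMM adjustment of the totals. The SD is over the 3 libraries of an organ, and a gene is called at an adjusted p below 0.05 in edgeR's quasi-likelihood test, adjusted over 16609 genes with the Benjamini-Hochberg method. Foxp3 was detected in every library, at 31.2 to 187 CPM in spleen, 41.8 to 46.3 CPM in MLN and 0.24 to 38.0 CPM in heart, where heart library 3 had the lowest value. The 9 Treg markers summed to 3365 to 3775 CPM in spleen, 2980 to 4828 CPM in MLN and 1352 to 1696 CPM in heart, lower in every heart library than in any lymphoid one. The heart libraries are Treg libraries by label, and their differences from the lymphoid libraries are given as differences between libraries and not as changes within Tregs. Spleen library 3, MLN library 3 and heart library 2 stood apart within their organs, with the largest scaling factors (1.24, 1.17 and 1.11) and the lowest share of counts from B2m, a gene of all nucleated cells (1.20%, 1.55% and 1.25%, against 2.38% to 2.71% in the other libraries).

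Heart libraries also had counts from marker genes of cells other than T cells. The 12 cardiomyocyte markers summed to 206 to 528 CPM in heart, with every marker detected, against 0.601 to 1.90 CPM in spleen and 0 to 0.131 CPM in MLN. In spleen 8 of these markers and in MLN 10 had no count, Myh6, Myl2 and Mb among them in both. The 8 fibroblast markers summed to 2514 to 19300 CPM in heart against at most 16.4 CPM in a lymphoid library. The 11 macrophage and monocyte markers summed to 6015 to 11230 CPM in heart, 969 to 2469 CPM in spleen and 241 to 762 CPM in MLN. The 8 neutrophil markers summed to 683 to 3888 CPM in heart and to at most 28.8 CPM elsewhere, while 8 B cell markers ran the other way, at 61.6 to 125 CPM in heart, 845 to 2589 CPM in MLN and 3740 to 5063 CPM in spleen. Heart did not overlap with either lymphoid organ in any of these 5 sums. The 9 T cell markers summed to 2006 to 3329 CPM in heart and to 3916 to 5140 CPM in the lymphoid libraries. The 8 endothelial markers summed to 420 to 1312 CPM in heart and at most 218 CPM elsewhere. The 8 mast cell markers summed to 8293, 5386 and 49.6 CPM in heart libraries 1 to 3, against 60.9 CPM in MLN 1. Cells other than T cells also use glycolysis and hypoxia genes. Their part in the differences between heart and lymphoid libraries reported here was not tested. In bulk libraries, fewer cells of a type and less RNA per cell cannot be told apart.

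**Figure D1:**
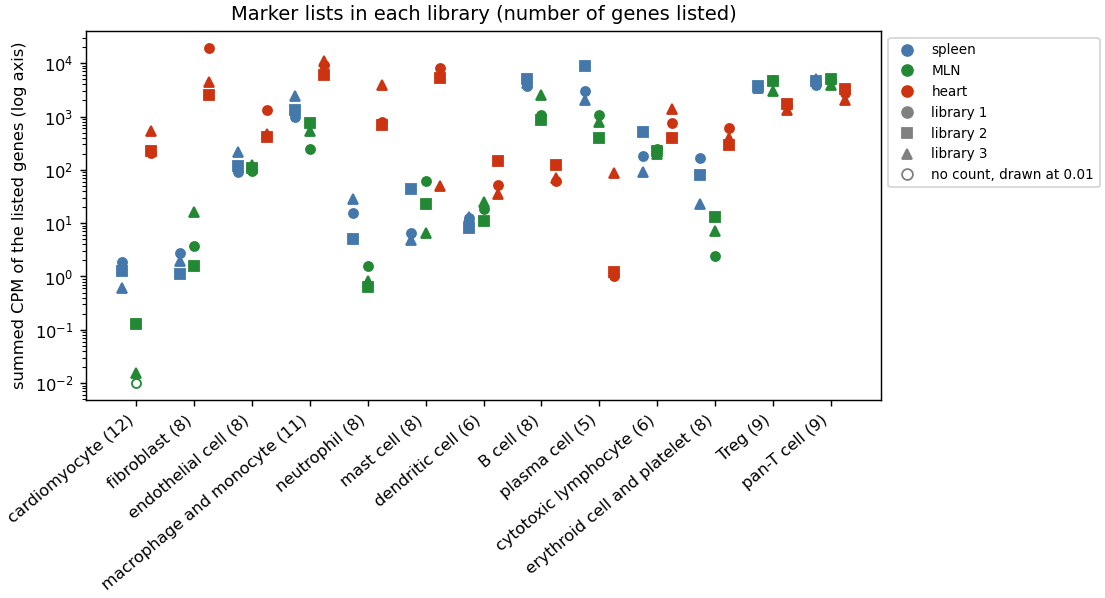
Summed CPM of marker lists of Tregs, T cells and other cell types (log axis), 1 point per library, coloured by organ; the number of genes in each list stands in brackets. Cardiomyocyte sums were 206 to 528 CPM in heart and at most 1.90 CPM in the 6 lymphoid libraries, and Treg sums were lowest in heart.

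Of the 34 genes, 4 were called higher in the heart libraries than in the mean of the spleen and MLN libraries and none was called lower. The 4 were Hk2, hexokinase 2, which traps glucose in the cell as its phosphate; Bnip3, a receptor for the removal of mitochondria; Bhlhe40, a transcriptional repressor of activated T cells; and Hif1a, the oxygen-regulated subunit of HIF-1. Against spleen alone and against MLN alone, Hk2 was the only member called, and it was higher in heart both times. No transporter of glucose or lactate was called, nor any glycolytic enzyme below hexokinase, in edgeR. Leaving out any 1 library left 1 to 3 members called against the mean of both lymphoid organs. DESeq2 called 4 members against spleen, the same 4 named here, where it called 2409 of 24648 genes. Against MLN it called 6 members, with Gapdh and Slc16a3 added, where it called 2805 of 24648 genes. Neither added call is read as a result, for the limits given with the values of Gapdh and Slc16a3. The comparisons with heart share the heart libraries and are not independent of each other.

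Read against all genes, these counts were as follows. In heart against the mean of spleen and MLN, 940 of 16609 genes were called, which is 5.66% (820 higher, 4.94%, and 120 lower, 0.722%), and 4 of 34 members is 11.8%. In heart against spleen, 131 genes were called, 0.789% of those tested (0.614% higher), and 1 member, 2.94%. In heart against MLN, 230 genes were called, 1.38% of those tested (1.1% higher), and 1 member, 2.94%. The members' median log2 difference was 0.83 in heart against the mean of both lymphoid organs, with 28 of 34 above 0, where the median of all genes was 0.11. Without heart 2 it was 0.43. Against spleen the median was 0.43 (23 of 34 above 0, all genes 0.02), and it was 1.14 without spleen 3, 0.26 without spleen 1 or heart 2 and 0.27 without spleen 2. Against MLN it was 0.99 (28 of 34 above 0, all genes 0.12). All members were measured in the same libraries, so the counts above 0 are not counts of independent observations. The counts of called genes moved with single libraries too. Those against spleen were 0 without spleen 1, spleen 2 or heart 3, 1 without spleen 3, 2 without heart 2, 10 without heart 1, and 84 to 122 without an MLN library. Those against MLN were 0 without MLN 1 or heart 3, 24 to 59 without MLN 2, MLN 3, heart 1 or heart 2, and 170 to 249 without a spleen library. Against the mean, 160 to 318 genes were called without a heart library and 423 to 597 without a lymphoid library. Heart libraries lay apart from all 6 lymphoid libraries, with no overlap, for 4 members, all higher, and for 13.4% of all genes (9.48% higher), so a share of 11.8% was near the background by that measure.

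**Figure D2:**
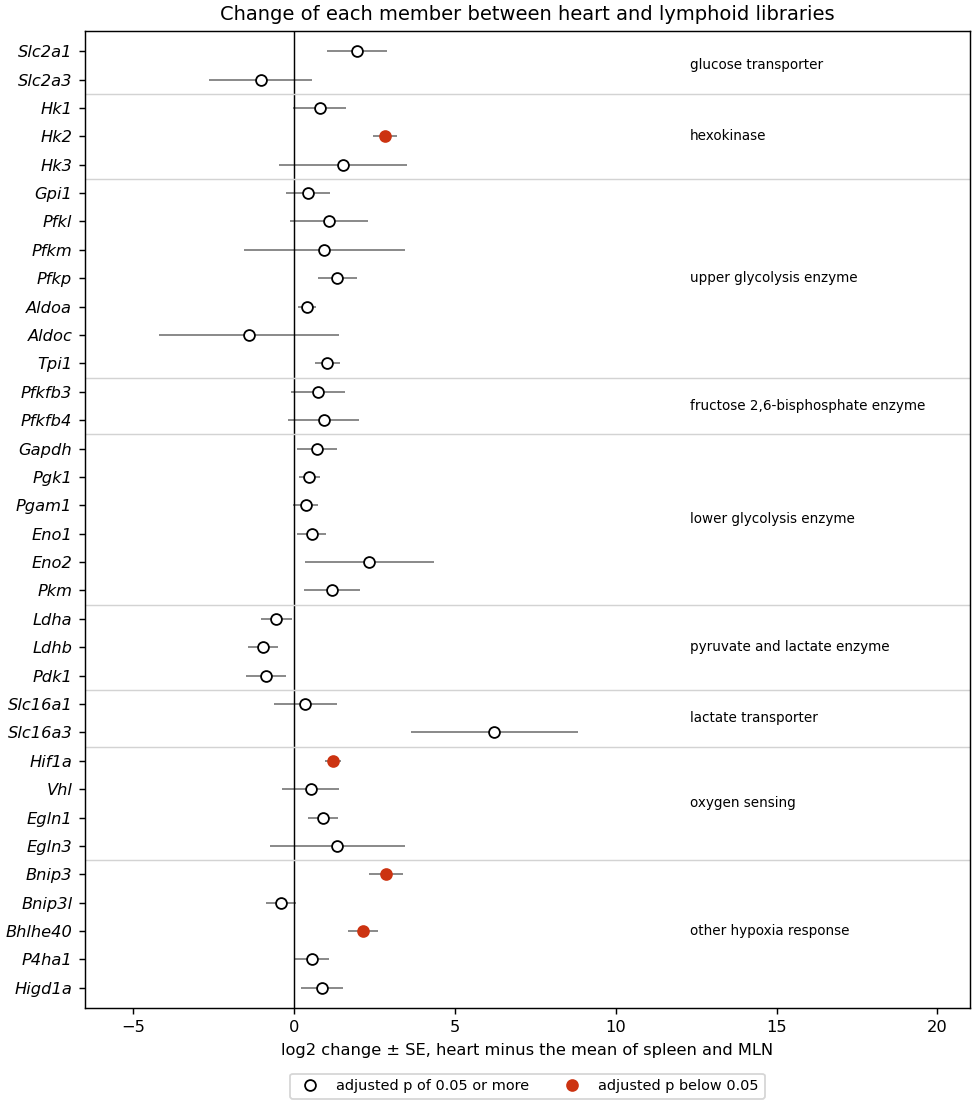
Log2 difference of each of the 34 genes in heart minus the mean of spleen and MLN, with its standard error, grouped by role; filled points have an adjusted p below 0.05 in edgeR's quasi-likelihood test. The 4 filled points are Hk2 (2.82), Bnip3 (2.86), Bhlhe40 (2.14) and Hif1a (1.20), and the 3 pyruvate and lactate enzymes lie below 0 without a call.

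Hexokinases carry out the first step of glycolysis. Hk2 (ENSMUSG00000000628, chr6:82725025-82774454, minus strand in build GRCm38) is the inducible form, bound to mitochondria. Its level was 14.7, 25.8 and 10.6 CPM in spleen libraries 1 to 3, 22.7, 16.1 and 26.8 CPM in MLN and 167.9, 97.0 and 144.7 CPM in heart. Every heart library was above every lymphoid library, and the lymphoid organs overlapped. The means were 17.0 ± 7.89 CPM in spleen, 21.9 ± 5.38 CPM in MLN and 136.5 ± 36.1 CPM in heart (SD, n = 3 each). In edgeR's quasi-likelihood test Hk2 rose 7.08-fold in heart over the mean of spleen and MLN (log2 2.82, SE 0.37, adjusted p = 0.00836), 8.02-fold over spleen (log2 3.00, SE 0.48, adjusted p = 0.0398) and 6.24-fold over MLN (log2 2.64, SE 0.47, adjusted p = 0.0419). The call against the mean of both lymphoid organs held without each of the 9 libraries in turn (adjusted p 0.0161 to 0.0448), while that against spleen was lost each time (0.0507 to 0.131) and that against MLN in 7 of 9. Over these 9 fits the estimate against the mean was log2 2.65 to 3.07. Without spleen 3, MLN 3 and heart 2 together that call was lost, at log2 2.99. No other gene's exons overlap those of Hk2.

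**Figure D3:**
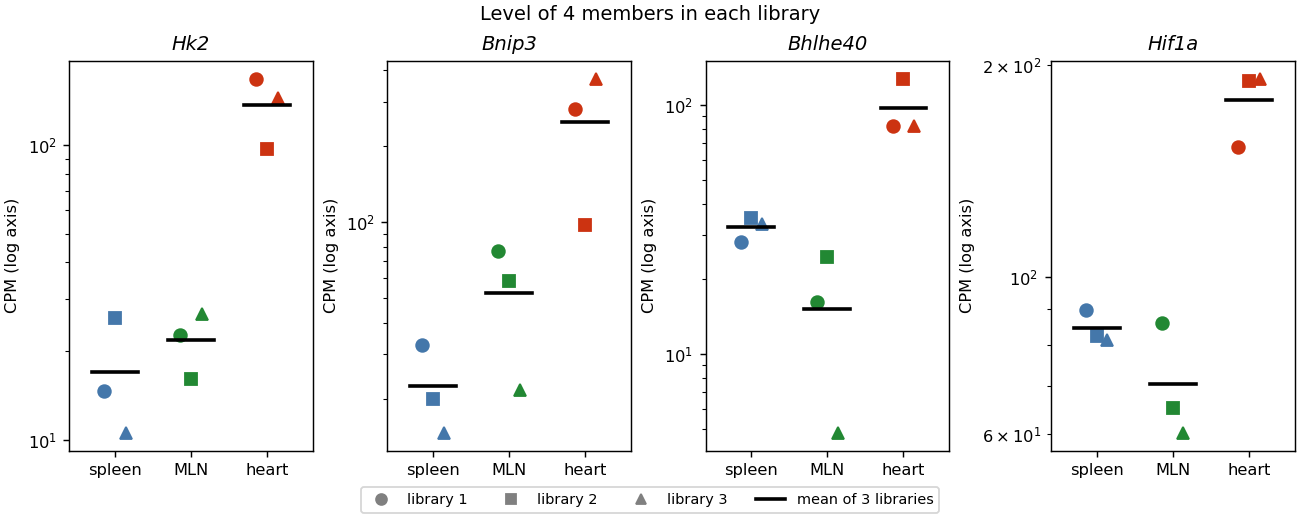
CPM of the 4 called genes in each library (log axis, a separate scale for each gene), with symbols for libraries 1 to 3 and a bar for the mean of 3 libraries. For each gene all 3 heart libraries lie above all 6 lymphoid libraries; Bnip3 comes closest, with 97.1 CPM in heart 2 and 76.9 CPM in MLN 1.

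The other hexokinases differed from Hk2. Hk1, the constitutive form, measured 3.43, 25.2 and 46.4 CPM in spleen, 4.62, 3.51 and 8.03 CPM in MLN and 15.5, 39.4 and 5.83 CPM in heart, so that the organs overlapped (log2 0.80, SE 0.83, adjusted p = 0.743 in edgeR for heart against the mean). Hk3, a myeloid-rich hexokinase, stayed at or below 10.1 CPM in every library and was not called. Per kilobase of exon, Hk2 supplied 87.6%, 68.8% and 90.6% of hexokinase CPM in the heart libraries. That share was 80.6%, 86.8% and 56.8% in MLN and 86.0%, 53.7% and 21.2% in spleen, where Hk1 made up 65.1% in library 3. The share of Hk2 therefore overlapped between heart and lymphoid libraries while its level did not.

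**Figure D4:**
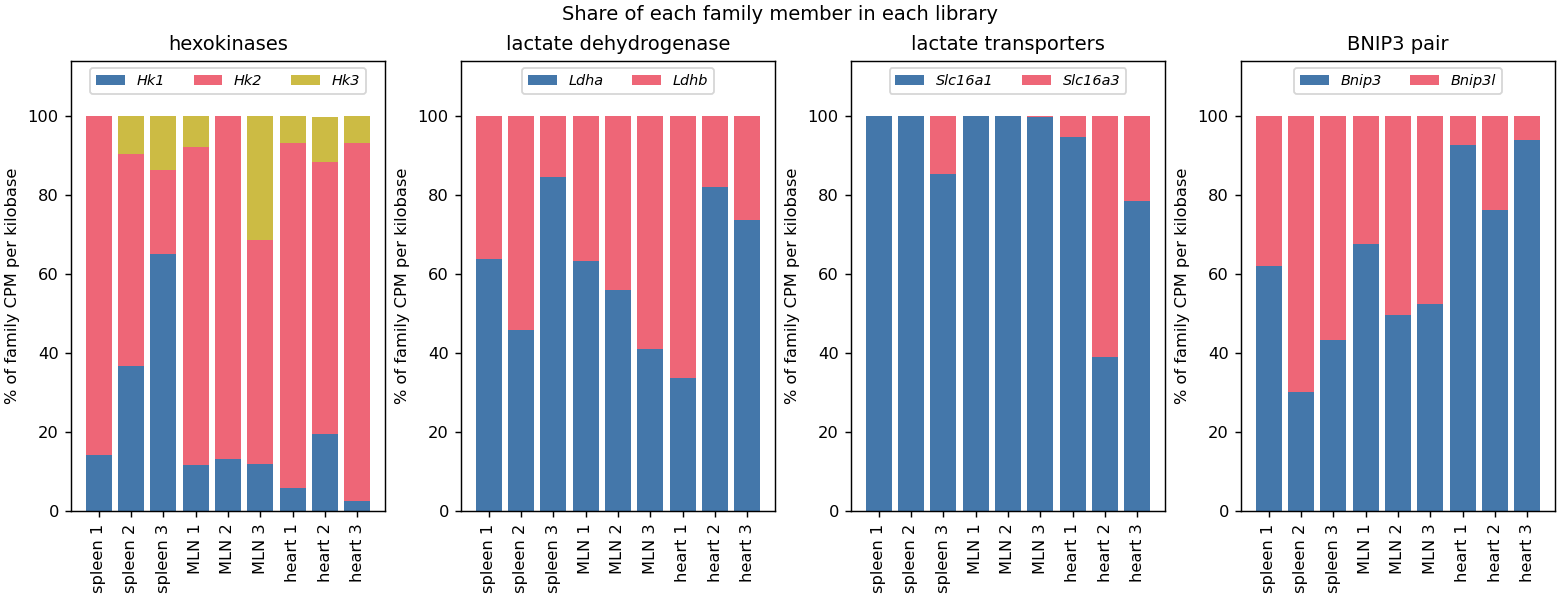
Share of each gene in the summed CPM per kilobase of 4 families, 1 bar per library. The Bnip3 share is 76.2% to 94.1% in heart and at most 67.6% in the lymphoid libraries, and in the other 3 families heart and lymphoid shares overlap.

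Glucose enters through Slc2a1 (GLUT1), the main glucose carrier of activated T cells, and Slc2a3 (GLUT3), a high-affinity carrier. Slc2a1 measured 9.37, 6.91 and 70.2 CPM in spleen, 13.9, 27.4 and 45.7 CPM in MLN and 13.1, 216.8 and 108.3 CPM in heart. Its mean was highest in heart, 112.7 ± 102 CPM (SD, n = 3), but heart library 1 lay among the lymphoid libraries and the difference was not called (log2 1.96, SE 0.93, adjusted p = 0.318 in edgeR). Slc2a3 measured 1.94, 6.57 and 13.4 CPM in spleen, 3.41, 4.18 and 4.39 CPM in MLN and 3.24, 4.65 and 0 CPM in heart. It was the lesser transporter per kilobase in each library, with Slc2a1 at 68.5% to 100% of the pair.

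Between hexokinase and triose phosphate, none of 7 upper enzymes was called in any comparison in edgeR. For heart against the mean, 1 of the 7, Tpi1, had an unadjusted p below 0.05, and DESeq2 called it. Aldoa, the main aldolase of these libraries, measured 110, 131 and 157 CPM in spleen, 93.7, 81.6 and 106 CPM in MLN and 136.5, 201.7 and 105 CPM in heart. Each MLN library was below each spleen library, and heart overlapped both. Gpi1, which turns glucose 6-phosphate into fructose 6-phosphate, measured 23.3, 101.7 and 276 CPM in spleen, 73.5, 74.6 and 90.7 CPM in MLN and 98.9, 248 and 70.4 CPM in heart, with the whole range of the 9 libraries spanned by spleen. The triose phosphate isomerase gene Tpi1 measured 28.3, 25.3 and 59.9 CPM in spleen, 37.5, 35.4 and 27.9 CPM in MLN and 78.5, 94.6 and 45.5 CPM in heart, where library 3 lay below spleen library 3 (log2 1.03, SE 0.39, adjusted p = 0.216). Of the phosphofructokinases, which commit sugar to glycolysis, the platelet-type Pfkp was the most abundant per kilobase in all 9 libraries, with 42.7 to 165 CPM in spleen, 24.1 to 56.4 CPM in MLN and 62.2 to 261 CPM in heart. Pfkl ranged from 0.604 to 65.5 CPM and the muscle-type Pfkm from 0 to 12.5 CPM, and Aldoc did not exceed 1.38 CPM.

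Pfkfb3 and Pfkfb4 make and break fructose 2,6-bisphosphate, the activator of phosphofructokinase. Pfkfb3 measured 1.05, 13.5 and 10.8 CPM in spleen, 7.12, 6.68 and 18.6 CPM in MLN and 29.4, 10.4 and 7.80 CPM in heart. Pfkfb4 measured 2.93, 6.74 and 4.22 CPM in spleen, 0.0336, 0.959 and 0.959 CPM in MLN and 1.77, 5.06 and 3.08 CPM in heart. MLN libraries were below all others for Pfkfb4, and organs overlapped for Pfkfb3. Neither was called in any comparison, by edgeR or by DESeq2, and neither had an unadjusted p below 0.05 in edgeR.

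The lower enzymes, from glyceraldehyde phosphate to pyruvate, give the ATP of the pathway. Pgk1, phosphoglycerate kinase, measured 250.3, 148.9 and 264 CPM in spleen, 406, 368.5 and 193.5 CPM in MLN and 308, 455 and 347 CPM in heart. Heart was above spleen in every library and overlapped MLN (log2 0.47, SE 0.33, adjusted p = 0.559 in edgeR for heart against the mean). Pgam1, phosphoglycerate mutase, measured 119, 95.2 and 98.7 CPM in spleen, 169, 128 and 98.0 CPM in MLN and 64.3, 201.5 and 185 CPM in heart, where library 1 was the lowest of all 9. The enolase Eno1 ranged from 91.1 to 318 CPM and held at least 99.4% of the CPM per kilobase of the Eno1 and Eno2 pair. The pyruvate kinase Pkm measured 58.7, 112 and 620 CPM in spleen, 63.8, 100.7 and 71.0 CPM in MLN and 85.5, 774 and 115 CPM in heart, so 2 libraries set its organ means. Eno2 had no count in MLN and at most 1.67 CPM elsewhere. None of the 6 lower enzymes was called by edgeR in any comparison or had an unadjusted p below 0.05, and DESeq2 called Gapdh, higher in heart than in MLN and lower in MLN than in spleen.

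The count of Gapdh cannot be read as that of other enzymes. Gapdh, usually among the most abundant mRNAs, measured only 2.24 to 13.1 CPM, and 78 genes of similar sequence, 75 of them pseudogenes, together held 329295 counts against 12809 in Gapdh itself. These copies took 90.6% to 98.4% of the joint counts in each library. Their summed level was 160 to 200.5 on an unscaled CPM basis in spleen, 141 to 158 in MLN and 105 to 249 in heart. On that basis every spleen library was above every MLN library, narrowly so for spleen 1 and MLN 1, and heart overlapped both. With the TMM-adjusted totals used for the other levels, spleen and MLN overlapped. Eno1 shared sequence with 3 genes that held 10.6% to 13.8% of the joint counts, and Bnip3l with 1 gene that held 10415 counts against 103757 in Bnip3l.

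Both lactate dehydrogenase genes had the highest levels per kilobase of the 34. Over all libraries Ldha, the lactate dehydrogenase subunit that favours lactate, had a mean of 220.3 CPM per kilobase, followed by Ldhb, the subunit that favours pyruvate, at 145 and Pgk1 at 136. Ldha measured 826, 400.5 and 767 CPM in spleen, 1285, 1044 and 590 CPM in MLN and 225, 893 and 532.5 CPM in heart. The organs overlapped and heart was not higher (log2 -0.55, SE 0.48, adjusted p = 0.679 in edgeR for heart against the mean). Ldhb measured 222.5, 226 and 66.0 CPM in spleen, 351, 391 and 404 CPM in MLN and 211, 91.5 and 90.6 CPM in heart. Each MLN library was above each spleen and heart library, yet no comparison passed the threshold (log2 -0.97, SE 0.48, adjusted p = 0.343 for heart against the mean). Pdk1, a kinase that keeps pyruvate out of the mitochondria, lay between 8.06 and 51.5 CPM. DESeq2 called none of these 3 pyruvate and lactate enzymes in any comparison, and in edgeR 1 of the 3 had an unadjusted p below 0.05, for heart against MLN only. The share of Ldha in the pair ran from 33.6% in heart library 1 to 84.6% in spleen library 3.

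Lactate leaves through Slc16a1 (MCT1) and Slc16a3 (MCT4), the exporter of strongly glycolytic cells. Slc16a1 measured 4.15, 0.397 and 22.6 CPM in spleen, 7.24, 10.7 and 12.2 CPM in MLN and 8.10, 13.8 and 14.5 CPM in heart. Slc16a3 measured 0, 0 and 4.69 CPM in spleen, 0, 0 and 0.0348 CPM in MLN and 0.544, 25.9 and 4.79 CPM in heart. Slc16a3 thus had counts in all 3 heart libraries and in 2 of 6 lymphoid ones, with spleen 3 within the range of heart. It was not called in edgeR (adjusted p = 0.252 for heart against the mean), and DESeq2 called it against MLN only. In MLN, Slc16a3 had 9 counts, all in library 3. It had too few lymphoid libraries above the minimum to pass the filter on low counts without heart. The DESeq2 call of Slc16a3 against MLN is therefore not read as a result.

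Oxygen-sensing genes were led by Hif1a (ENSMUSG00000021109, chr12:73901375-73947530, plus strand). It measured 89.9, 82.4 and 81.5 CPM in spleen, 86.0, 65.3 and 60.1 CPM in MLN and 153, 189.8 and 191 CPM in heart. All heart libraries were above all lymphoid ones, and its spread within organs was small, with means of 84.6 ± 4.59, 70.5 ± 13.7 and 178 ± 21.6 CPM (SD, n = 3 each). Hif1a rose 2.3-fold in heart over the mean of spleen and MLN (log2 1.20, SE 0.25, adjusted p = 0.03 in edgeR), but against spleen (log2 1.07, adjusted p = 0.129) and MLN (log2 1.34, adjusted p = 0.07) alone it was not called. The call was lost without any 1 of the 9 libraries (adjusted p 0.0582 to 0.113), with log2 values of 1.15 to 1.30. Of the exon bases of Hif1a, 8.1% are shared with the overlapping genes Gm15283 and Gm49321.

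Egln1, the main prolyl hydroxylase that marks HIF-1 alpha, measured 20.6, 15.7 and 43.7 CPM in spleen, 20.2, 27.0 and 50.8 CPM in MLN and 36.3, 54.8 and 74.3 CPM in heart (log2 0.90, SE 0.47, adjusted p = 0.377 in edgeR). Egln3, a hydroxylase that is itself induced by HIF, ranged from 0 to 42.5 CPM with a library at 0 in spleen and in MLN. Vhl, which recognises hydroxylated HIF-1 alpha, stayed between 0.732 and 6.51 CPM. Organs overlapped for all 3, and none was called by edgeR or DESeq2 or had an unadjusted p below 0.05 in edgeR.

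Among the other hypoxia-responsive genes, Bnip3 (ENSMUSG00000078566, chr7:138890836-138909519, minus strand) had the largest called difference against the mean of both lymphoid organs. It measured 32.6, 19.9 and 14.7 CPM in spleen, 76.9, 58.6 and 21.7 CPM in MLN and 281, 97.1 and 369.5 CPM in heart. Heart libraries were above all others, and spleen and MLN overlapped. The means were 22.4 ± 9.20, 52.4 ± 28.1 and 249 ± 139 CPM (SD, n = 3 each). Bnip3 rose 7.28-fold in heart over the mean of spleen and MLN (log2 2.86, SE 0.52, adjusted p = 0.0215 in edgeR). It was not called against spleen (log2 3.48, SE 0.69, adjusted p = 0.0651) or MLN (log2 2.25, SE 0.65, adjusted p = 0.126) alone. The call against the mean was lost without spleen 2 (log2 2.86), MLN 2 (2.91), heart 1 (2.77) or heart 3 (2.46). Of its exon bases 22.3% are shared with the overlapping gene Gm45507.

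Bnip3l, the paralog of Bnip3 (also known as NIX), did not share this pattern. It measured 32.9 to 78.4 CPM in spleen, 33.7 to 100.8 CPM in MLN and 37.0 to 51.7 CPM in heart (log2 -0.41, SE 0.46, adjusted p = 0.778). Bnip3 therefore made up 92.8%, 76.2% and 94.1% of the pair's CPM per kilobase in heart, against 62.1%, 30.2% and 43.2% in spleen and 67.6%, 49.7% and 52.3% in MLN. Of 10 families examined, this was the only one in which the shares of the heart libraries did not overlap with those of the lymphoid libraries. By level, 13.4% of all genes did not overlap in this way, and the share of Bnip3 is not independent of its level.

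Bhlhe40 (ENSMUSG00000030103, chr6:108660629-108666925, plus strand) measured 28.0, 35.2 and 33.3 CPM in spleen, 16.1, 24.4 and 4.80 CPM in MLN and 82.4, 127 and 82.4 CPM in heart. The 3 organs did not overlap, with MLN the lowest and heart the highest. Bhlhe40 rose 4.42-fold in heart over the mean of spleen and MLN (log2 2.14, SE 0.47, adjusted p = 0.0354 in edgeR), with adjusted p = 0.25 against spleen (log2 1.60) and 0.0686 against MLN (log2 2.69). The call held only without MLN 2 (log2 2.41) and without MLN 3 (log2 1.93), and was lost without any other single library (log2 1.90 to 2.25). Bhlhe40 is also induced by T cell activation.

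The remaining pair is Higd1a, a mitochondrial protein that supports respiration under low oxygen, and P4ha1, a subunit of the enzyme that hydroxylates collagen. Higd1a measured 160, 80.6 and 47.1 CPM in spleen, 125, 107.5 and 61.3 CPM in MLN and 355, 38.0 and 135 CPM in heart. Heart library 2 was the lowest of all 9 and heart library 1 the highest (log2 0.87, SE 0.65, adjusted p = 0.593 in edgeR). P4ha1 measured 16.7 to 43.7 CPM in spleen, 31.4 to 68.7 CPM in MLN and 19.3 to 95.4 CPM in heart and was not called (adjusted p = 0.721).

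Many members peaked in spleen library 3 and heart library 2, and fewer in MLN library 3. Of 34 members, 20 had their highest spleen value in spleen library 3 (58.8%, against 39.2% of all genes) and 20 their highest heart value in heart library 2 (58.8%, against 38.0%). MLN library 3 held the highest MLN value of 15 members (44.1%, against 35.7%). Relative to the other libraries of its organ, Pkm was 7.27-fold higher in spleen 3 and 7.72-fold higher in heart 2. Pfkl was 18.2-fold and 8.26-fold higher there, and Slc2a1 8.62-fold and 3.57-fold. In MLN 3, Pkm and Pfkl were below the other MLN libraries, at 0.863 and 0.758 times their mean. Hk1, Pfkm and Pfkp were more than 3-fold higher in both spleen 3 and heart 2. Hk2 and Bnip3 ran the other way, at 0.521 and 0.559 times the other spleen libraries and 0.621 and 0.298 times the other heart libraries. The 34 genes together took 0.421% of counts in spleen 3 and 0.517% in heart 2, against 0.191% to 0.305% in the other libraries, MLN 3 among them at 0.255%. Without spleen 3, MLN 3 and heart 2 together, 1 member was called in heart against the mean, Bnip3 (log2 2.96), and the members' median against spleen was 0.94.

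**Figure D5:**
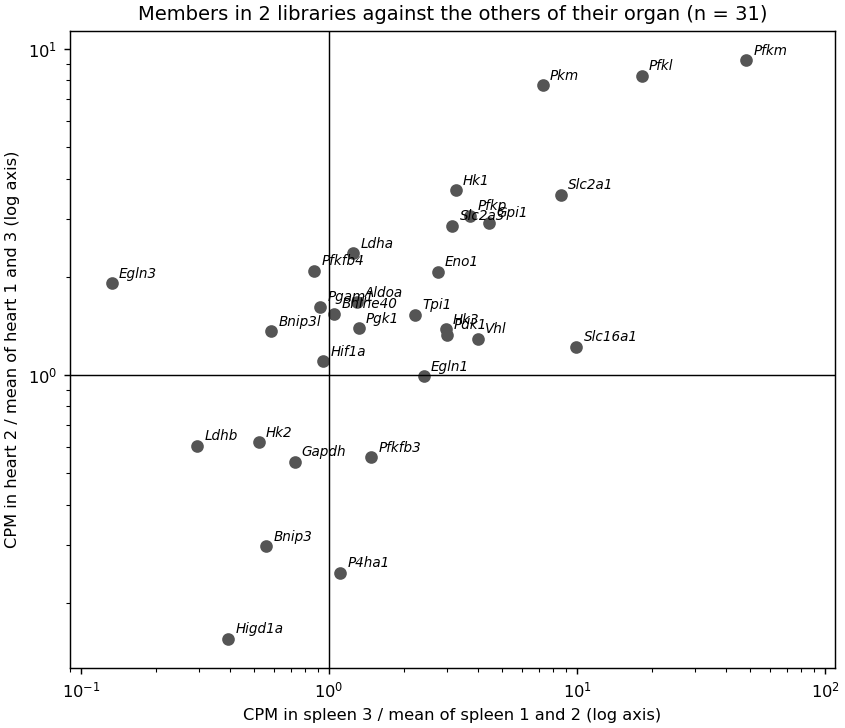
Level of 31 genes in spleen 3 and in heart 2, each divided by the mean of the other 2 libraries of its organ (log axes; lines at a ratio of 1). Of the 31 genes, 18 lie above 1 in both directions, with Pfkm, Pfkl and Pkm farthest out, and 5, Hk2 and Bnip3 among them, lie below 1 in both.

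In MLN against spleen edgeR called none of the 34 genes, with 0 members at an unadjusted p below 0.05. Over all genes edgeR called 0 of 16609 (0%), with 955 at an unadjusted p below 0.05. DESeq2 called 860 of 24648 genes and 1 of 34 members, Gapdh, lower in MLN. The members' median log2 difference, MLN minus spleen, was -0.07 with 17 of 34 above 0. The organs' libraries did not overlap for 5 members, which is 14.7% against 9.08% of all genes. Ldhb was higher in MLN, and Aldoa, Pfkfb4, Gapdh and Bhlhe40 were lower. Of these, Gapdh is not read as a result here or in the DESeq2 call, since similar genes held most of the joint counts. In heart against spleen the libraries of 6 members did not overlap, all higher in heart, which is 17.6% against 19.3% of all genes in either direction and 12.4% higher. Hk2, Hif1a, Bnip3 and Bhlhe40 were joined there by Hk3 and Pgk1. In heart against MLN there were 10 such members, 29.4% against 26.2% of all genes in either direction. Those higher in heart were 26.5% of members against 14.9% of all genes, and Ldhb was the only one lower. The higher ones were Hk2, Hif1a, Bnip3, Bhlhe40, Pfkp, Tpi1, Pfkfb4, Gapdh and Slc16a3. Gapdh and Slc16a3 are not read as results there, the latter since it needed the heart libraries to pass the filter.

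Other genes of the same pathways were read from lists beside the 34 members. Of 22 other hypoxia targets, 20 were tested and 4 were called higher in heart than in the mean of spleen and MLN, with none lower, where 4.94% of all genes were called higher. One of the 4, P4ha2, passed the filter on low counts through heart alone and so had to differ. Mt1, a metallothionein, measured 667, 112 and 450 CPM in heart and 2.61 to 38.9 CPM in the lymphoid libraries (log2 4.56, SE 0.73, adjusted p = 0.0148 in edgeR). Hilpda, an inhibitor of triglyceride breakdown, measured 285, 98.9 and 161 CPM in heart and 17.1 to 86.0 CPM in the lymphoid libraries (log2 2.54, SE 0.55, adjusted p = 0.0354). Mxi1, an antagonist of MYC, measured 122, 149.9 and 102 CPM in heart and 0.405 to 20.3 CPM elsewhere (log2 3.73, SE 0.87, adjusted p = 0.0448). P4ha2, a collagen hydroxylase subunit and paralog of P4ha1, had no count in any lymphoid library and 19.3, 12.6 and 9.20 CPM in heart, which is at least 985-fold higher against 3 counts per library. Heart libraries lay above all lymphoid ones for 8 of the 20 tested targets and for 9.48% of all genes. Besides the 4 called genes these were Vegfa, Ndrg1, Lox and Ero1l, which were not called in edgeR. Lox had lymphoid counts in MLN 3 alone (3.52 CPM), and Vegfa in spleen 2 and MLN 3 alone (1.97 and 0.170 CPM). Both needed the heart libraries to pass the filter, so their lack of overlap is not read as a result. DESeq2 called 7 of the 22 targets higher in heart than in the mean and 0 lower, with Lox, Ero1l and Plod2 added. It called 2429 of 24648 genes higher in that comparison. Plod2 had no count in spleen and in MLN was counted in library 2 alone, at 19.6 CPM. That value lay above heart 2 and heart 3, at 15.1 and 18.0 CPM. P4ha2, Lox and Plod2 had counts in a single lymphoid library or in none, so their calls are not read as results. As with the members, the part of stromal and myeloid RNA in these values was not tested.

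In the remaining lists few genes were called for heart against the mean. Of 12 tested genes of pyruvate entry into mitochondria the only call was Pdk4, a kinase that restrains pyruvate oxidation and is abundant in heart muscle. Pdk4 had no lymphoid count and 3.38, 13.9 and 6.16 CPM in heart, at least 563-fold higher. Of 15 tested other glycolysis genes, the only call was Pfkfb2, with 0.161 to 7.79 CPM in the lymphoid libraries and no count in heart (at least 230-fold lower against 3 counts per library). Of 12 other oxygen-sensing genes edgeR called 0, with 2 at an unadjusted p below 0.05. DESeq2 called Hif3a, lower in heart. Hif3a had no count in heart and 0 to 0.81 CPM in the lymphoid libraries, so its call is not read as a result. Epas1, the HIF-2 alpha gene, measured 92.4, 75.0 and 46.9 CPM in heart, 15.6 CPM in spleen 3 and at most 0.135 CPM in the other lymphoid libraries, and was not called (adjusted p = 0.167). Of 7 pentose phosphate genes and 10 proliferation genes edgeR called 0, with 0 at an unadjusted p below 0.05, and DESeq2 called 0 as well. Pdk4 passed the filter on low counts through heart alone and Pfkfb2 through the lymphoid organs alone, so each had to differ, and their calls are not read as results.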

How the data were processed

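RNA of the 9 sorted-cell libraries was sequenced, 3 per organ. The authors deposited whole-number read counts per gene. Per the submitters' processing notes, CASAVA 1.8.2, HISAT2, HTSeq 0.6.0 and build mm10 were used; the strand option, annotation version and aligner settings were not given in the sources used here. Counts without strand cannot separate a gene from an antisense partner.

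The counts as deposited were tested with edgeR 4.0.16 in R 4.3.3 (limma 3.58.1). Genes passed edgeR's filter for low counts (minimum count 10, minimum total 15), which left 16609, all 34 members included; 27 members had a count in every library, and Eno2 and Slc16a3 passed with 1 organ below the minimum in all its libraries. A quasi-likelihood model had an organ term over all 9 libraries (6 residual degrees of freedom), with TMM scaling and 4 contrasts: each pair of organs, and heart against the mean of spleen and MLN. P-values were adjusted with the Benjamini-Hochberg method over all genes and called below 0.05. The scripts were tested first on simulated data with a smaller spread between libraries than these data, which does not measure power or error here. Folds against a group without counts used 3 counts per library; such floors cover counting error only, since amplified reads are not independent molecules. CPM per kilobase used exon lengths of GENCODE vM21 (49412 of 49510 IDs matched), and similar gene copies were found with blastn 2.17.0 (at least 95% identity over 200 bases). Alternatives were RLE scaling, DESeq2 1.42.0, 2 other filters, only the organs compared, a replicate block, and libraries left out. No value column was left unused (0), and no library was a copy of another. Values in every library are printed for called members, for those whose heart libraries did not overlap with the 6 lymphoid libraries and for the 2 with the highest level per kilobase in each role; Tpi1 and Pkm were added after their values were seen. The members and lists were chosen with earlier results of these data known.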

Additional observations from a re-analysis of the deposited data

How the results depend on the processing

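RLE scaling called 138 genes against spleen, 272 against MLN and 973 against the mean, where the main fit called 131, 230 and 940. With RLE scaling the same members were called as in the main fit in every comparison. DESeq2, run on all 24648 genes with a count, called more genes. It called 2409 for heart against spleen and 2805 for heart against MLN, with 4 and 6 of 34 members. For MLN against spleen it called 860 genes and 1 member. For heart against the mean of spleen and MLN it called 3341 genes and 5 members. Without a filter on low counts, 605 genes and 2 members (Hk2 and Bnip3) were called against the mean and 0 members against MLN (1 in the main fit). A stricter filter called 223 genes against spleen and 369 against MLN, and fits of only the organs compared called 292 and 548. Without spleen 3, MLN 3 and heart 2 together, 3 genes were called against spleen, 4 against MLN and 81 against the mean, with 0, 0 and 1 members; the members' median log2 difference against spleen was then 0.938, and the difference of Hk2 between MLN and spleen turned to -0.0711. The causes of these shifts were not tested.

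With a replicate block, 0, 0 and 1 genes and 0, 0 and 0 members were called against spleen, MLN and the mean, and the adjusted p of Hk2 against the mean was 0.0742 (log2 2.82). Whether equal replicate numbers mark samples of 1 animal is not stated. Deviations of same-numbered libraries from their organ means correlated at -0.19 to 0.199. The highest value between organs was 0.391, for spleen 3 and heart 2. With 3 libraries per organ, these values cannot decide whether the samples are paired.

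Leaving out 1 library at a time gave 0 to 122 genes, 0 to 0 members and a members' median of 0.261 to 1.14 against spleen; 0 to 249 genes, 0 to 1 members and 0.77 to 1.21 against MLN; 160 to 597 genes, 1 to 3 members and 0.43 to 1.14 against the mean; and 0 to 0 genes and a median of -0.445 to 0.312 for MLN against spleen. The direction of Hk2, Bnip3, Bhlhe40 and Hif1a in heart reversed in none of the alternatives. The common biological coefficient of variation was 133%. At this depth 7 members had libraries without a count, Slc2a3, Hk3, Pfkm, Aldoc, Eno2, Slc16a3 and Egln3, so that low levels of these are the least precise.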
